A study of Oreochromis niloticus and Pundamilia nyererei with 6 samples.

Results

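Opposite-strand overlapping loci are places where a spliced transcript unit on the + strand and another on the - strand cover some of the same bases of the genome. They were taken from the transcript tables of PN (Pundamilia nyererei) and ON (Oreochromis niloticus, Nile tilapia) liver. Transcripts with a strand and 2 or more exons were joined into loci where they overlapped on one strand, and every + and - locus sharing 1 base or more formed a pair. PN liver held 690 such pairs, made of 1309 of its 18601 spliced loci. ON liver held 1719 pairs, made of 3072 of its 21737 spliced loci.

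The study compared the transcriptomes of these cichlids, and the tables cover liver of 3 PN and 3 ON males with one library per fish. PN fish were generation 1 of Lake Victoria stock, ON fish were about generation 93 of stock from Manzala in Egypt, and all were reared in tanks. No age was given. Total RNA, from which rRNA had been removed, gave stranded paired-end 75 bp reads, and these were placed on PunNye1.0 for PN and on ASM185804v2 for ON. Abundance was given as FPKM, fragments per kilobase and per Mio fragments mapped, and a locus was given the sum of its transcripts. The aligned sequence behind a library were 1692 to 1943 megabases in PN and 1978 to 1997 megabases in ON, and no value above 0 was the same in any 2 libraries of a species. The rows carry serial names and no gene symbols, so members are named by their most abundant transcript and position, their roles are not given, and the liver label was not checked against marker genes.

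Genes on opposite strands can overlap in several ways. In tail-to-tail pairs the transcription units run toward each other and share their 3' ends, commonly within untranslated regions. In head-to-head pairs they run apart and share their 5' ends, where a common promoter region can serve both, and in nested pairs a small unit lies within the span of a larger one, often in an intron. Overlapping antisense RNA is known to be able to affect its partner through colliding polymerases, masking of splice sites or double-stranded RNA. The tables give no exon positions, so the overlaps here are overlaps of spans and need not contain an exon of either locus.

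Nested pairs were the most frequent class in both species over all sequences and transcripts. In PN, 255 pairs were nested (37.0%), 222 were tail-to-tail (32.2%) and 213 were head-to-head (30.9%). In ON, 796 were nested (46.3%), 578 were tail-to-tail (33.6%) and 345 were head-to-head (20.1%). Paired loci were 7.04% of the spliced loci in PN and 14.1% in ON, or 3.71 pairs per 100 loci in PN and 7.91 in ON. Each species has one merged transcript set, so these counts have no replicate error. Species, genome assembly, annotation and transcript set change together and cannot be told apart. When loci were built only from transcripts with a mean FPKM of 1 or more, there were 342 pairs in PN and 415 in ON, or 2.98 pairs per 100 loci in PN and 3.98 in ON. In ON the nested pairs were then 144 of 415, fewer than the 183 tail-to-tail pairs, and in PN they were 125 of 342, against 127 tail-to-tail pairs.

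The length of the overlap differed by class. Tail-to-tail pairs had the shortest overlaps, with a median of 157.5 bases in PN and 307 bases in ON. Head-to-head pairs had a median of 623 bases in PN and 885 bases in ON. For nested pairs, where the overlap is the whole inner locus, the median was 3675 bases in PN and 3691.5 bases in ON. Overlaps under 100 bases made up 127 of the 690 PN pairs (18.4%) and 210 of the 1719 ON pairs (12.2%), and 88 of those in PN and 146 of those in ON were tail-to-tail. The longest overlap was 74848 bases in PN and 335378 bases in ON.

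**Figure D1:**
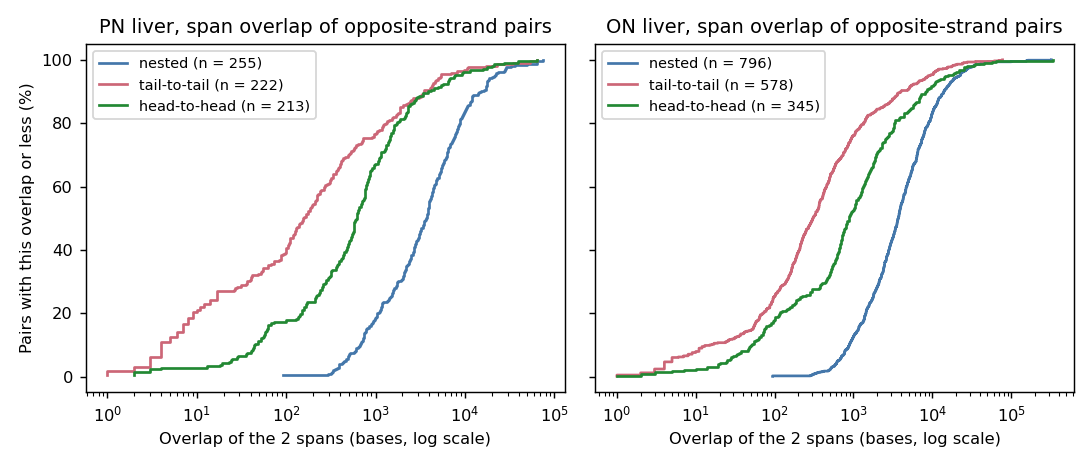
The share of pairs (y axis, percent) with an overlap up to the length on the x axis (bases, log scale), for PN on the left and ON on the right, with a line per class. The tail-to-tail line lies furthest left in both species, with medians of 157.5 bases in PN and 307 bases in ON, and the nested line lies furthest right.

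Most paired loci had a single partner, 1250 of 1309 in PN and 2864 of 3072 in ON. Paired loci had no transcript of more than 2 exons in 17.2% of cases in PN, against 9.49% of unpaired loci, and in 15.1% of cases in ON, against 11.1% of unpaired loci. Loci of several transcripts were also more frequent among paired loci, 40.1% against 29.0% of unpaired loci in PN and 37.3% against 30.1% in ON. Spans enter the rule that forms pairs, so these shares are a description. The median span was close, 8450 bases for paired and 8628 for unpaired loci in PN and 8434.5 for paired and 8269 for unpaired loci in ON.

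Pairs occurred on most large sequences. On the 112 PN sequences with 50 or more spliced loci, 0 to 21.0% of the loci were paired, with a median of 6.86%. On the 24 such ON sequences, 8.997% to 20.1% were paired, with a median of 13.9%. On these sequences alone the paired share was 7.49% in PN and 14.6% in ON, near the values over all sequences. The order of the classes was not the same in PN, where these sequences held 144 nested and 158 tail-to-tail pairs, while ON had 742 nested and 551 tail-to-tail pairs.

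Both loci of a pair were present together more often in PN than in ON. Both reached an FPKM of 1 in 51.6%, 57.2% and 54.5% of pairs in the PN libraries, and in 27.9%, 28.7% and 27.2% of pairs in the ON libraries. The groups did not overlap, and the means were 54.4% ± 2.83 in PN and 27.9% ± 0.759 in ON (SD, n = 3 each). The difference of 26.5 percentage points had p = 0.10 in a two-sided exact permutation test of 3 fish against 3, the smallest p this design allows, and 0.133 after adjustment over 4 tests. Single loci differed in the same direction. Unpaired loci reached an FPKM of 1 in all 3 libraries in 54.3% of cases in PN and 42.8% in ON. Under this stricter rule of all 3 libraries, both loci reached the level in 45.4% of pairs in PN and 21.2% in ON. Re-pairing the + and - loci of pairs in every way gave 41.7% in PN and 21.6% in ON under the same rule. With transcripts of a mean FPKM of 1 or more only, the share was 90.4% ± 3.36 in PN and 87.1% ± 2.79 in ON. The difference of 3.30 points had p = 0.20 in the same exact test. That filter uses the same FPKM level as the share, so high shares and a small difference were largely set by it.

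As a ratio of PN to ON, the species lay further apart at the lower than at the higher locus of a pair. In FPKM units the gap was larger at the higher locus. In nested pairs the median FPKM of the lower locus was 0.846, 1.31 and 0.952 in the PN libraries and 0.209, 0.187 and 0.180 in the ON libraries. The higher locus of nested pairs had a median of 5.79, 5.98 and 6.22 in PN and 3.07, 2.84 and 2.99 in ON. In tail-to-tail pairs the lower locus was at 1.40 ± 0.206 in PN and 0.401 ± 0.0408 in ON, and the higher locus at 8.09 ± 0.674 in PN and 4.52 ± 0.365 in ON (mean of medians ± SD, n = 3 each). In head-to-head pairs the lower locus was at 1.54 ± 0.283 in PN and 0.414 ± 0.0323 in ON, and the higher locus at 6.32 ± 0.366 in PN and 3.49 ± 0.329 in ON. In every class the PN and ON libraries did not overlap. This was not particular to pairs. Unpaired loci above 0 had a median FPKM of 2.21, 2.52 and 2.48 in the PN libraries and 1.36, 1.45 and 1.45 in the ON libraries. These class values were not tested.

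**Figure D2:**
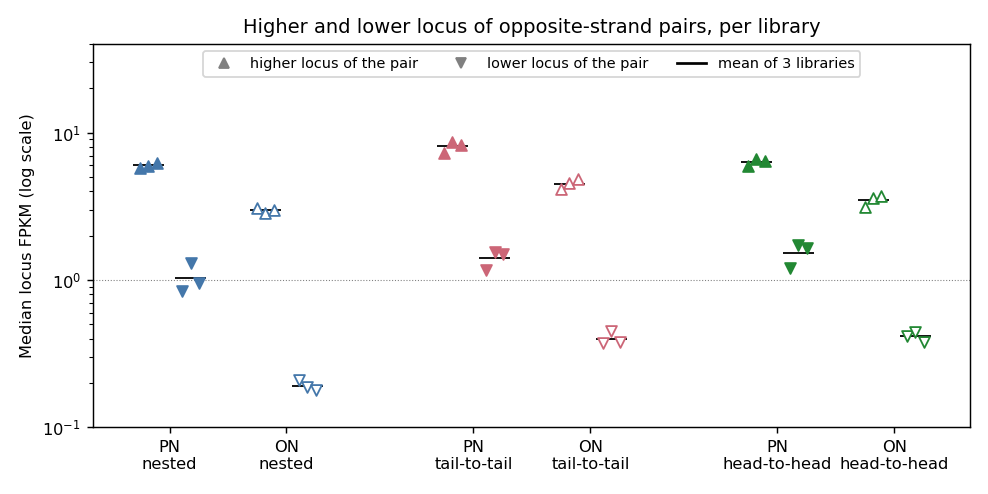
Median FPKM (y axis, log scale) of the higher locus (upward triangles) and the lower locus (downward triangles) of each pair, by class and species, with a point per library, filled for PN and open for ON, and a bar at the mean of 3 libraries. The lower locus sits between 0.846 and 1.74 in PN and between 0.180 and 0.448 in ON.

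Paired loci held 10.1%, 11.0% and 10.1% of the summed FPKM of spliced loci in the PN libraries, and 16.4%, 16.8% and 17.0% in the ON libraries. The PN mean of 10.4% ± 0.555 stood against 16.7% ± 0.305 in ON (SD, n = 3 each), a difference of -6.32 percentage points (two-sided exact permutation test, p = 0.10, adjusted 0.133). In PN this share was above the 7.04% of loci that were paired, and in ON it was above 14.1%. Much of it came from few loci. In ON the + locus mRNA24718, on NC_031979.1 from 30441132 to 30443193, was at 25474, 17597 and 24946 FPKM and held 22.4%, 17.1% and 22.7% of the FPKM of paired loci. In PN the + locus mRNA45898 held 12.3%, 14.2% and 12.3%. Without these 2 loci the share was 9.18% ± 0.385 in PN and 13.7% ± 0.553 in ON, a difference of -4.54 points. The ON libraries were then at 13.2%, 14.3% and 13.7%, on either side of the 14.1% of ON loci that were paired. No unpaired locus was removed, so the share could only fall.

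Paired loci were more abundant than unpaired loci in PN and at the same level in ON. Over loci above 0, the median log2 FPKM of paired minus unpaired loci was 0.47, 0.51 and 0.48 in the PN libraries and -0.04, 0.04 and -0.00 in the ON libraries. The PN mean was 0.49 ± 0.02 and the ON mean 0.00 ± 0.04 (SD, n = 3 each), a difference of 0.49 with p = 0.10 in the two-sided exact permutation test (adjusted 0.133). This contrast was much smaller, in the same direction, when loci were built from transcripts with a mean FPKM of 1 or more. That filter removes low values from paired and unpaired loci alike, so the medians are partly set by it. The values were then 0.39 ± 0.07 in PN and 0.32 ± 0.01 in ON, and the difference was 0.07 (exact permutation test, p = 0.20). With overlaps of 1000 bases or more the difference was 0.91.

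The contrast with unpaired loci also varied with the span of the locus. Spliced loci of each species were divided into 4 equal groups by span. In the group of shortest loci, the median log2 FPKM of paired minus unpaired loci was 0.14 ± 0.08 in PN and -0.69 ± 0.06 in ON. In the next group it was 0.25 ± 0.07 in PN and -0.15 ± 0.06 in ON, and in the one after that 0.61 ± 0.07 in PN and 0.14 ± 0.03 in ON. In the group of longest loci it was 0.98 ± 0.08 in PN and 0.53 ± 0.12 in ON (SD, n = 3 libraries throughout). Within both species the longest loci showed the greatest excess of paired over unpaired, and short paired loci of ON lay below short unpaired ones in all 3 libraries.

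**Figure D3:**
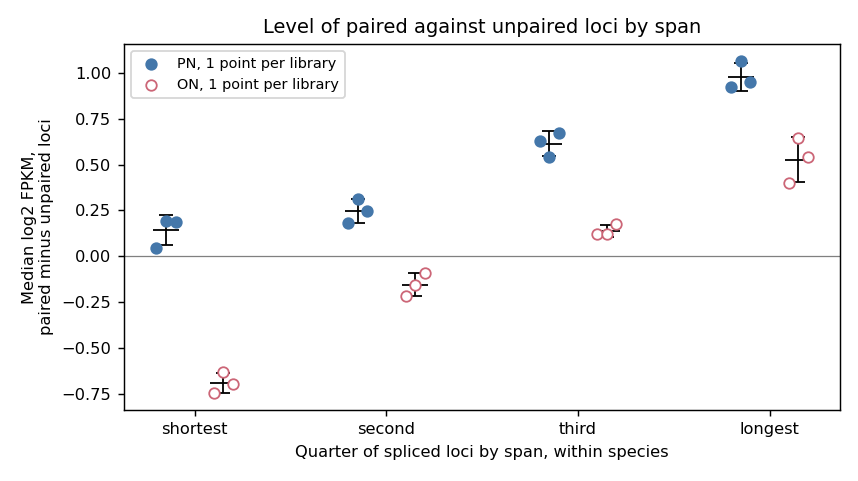
Difference of median log2 FPKM between paired and unpaired loci (y axis) in 4 equal groups of spliced loci by span (x axis), with a point per library, PN filled and left of ON, and bars for the mean and SD of 3 libraries. The PN points lie above 0 in every group, up to a mean of 0.98, and the ON means run between -0.69 in the shortest and 0.53 in the longest loci.

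Nested pairs joined a small inner locus with a large host. The inner locus had a median span of 3675 bases in PN and 3691.5 bases in ON, and the outer locus one of 36792 bases in PN and 61464.5 bases in ON. Inner loci had 2 exons at most in 53.7% of PN pairs and 35.7% of ON pairs, against 7.45% of outer loci in PN and 5.90% in ON. The inner locus was at a median FPKM of 1.63, 2.32 and 2.04 in the PN libraries, where the outer locus was at 4.17, 5.00 and 4.74. In the ON libraries the inner locus was at 0.265, 0.254 and 0.267 and the outer locus at 2.14, 2.32 and 2.15. The host was thus the more abundant locus in the median of every library, by mean FPKM in 169 of 255 PN pairs and 633 of 796 ON pairs. These values run over pairs, so a host with several inner loci was counted once for each. The ON host mRNA16480 alone entered 16 nested pairs. The FPKM of a locus is also a sum over its transcripts, 11 in that host. With the host divided into 3 equal parts, the midpoint of the inner locus lay in the middle part in 126 PN and 348 ON pairs. It lay in the 5' part in 80 PN and 213 ON pairs, and in the 3' part in 49 PN and 235 ON pairs.

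Levels of the partners were then compared within pairs. Over pairs with both loci at an FPKM of 1 or more in all 3 libraries, 313 in PN and 365 in ON, the median absolute log2 ratio of + to - locus was 1.67, 1.62 and 1.64 in the PN libraries and 1.60, 1.71 and 1.82 in the ON libraries. The libraries of the species overlapped, with means of 1.64 ± 0.03 in PN and 1.71 ± 0.11 in ON, and the difference of -0.07 had p = 0.40 in a two-sided exact permutation test (n = 3 each, adjusted 0.40). Leaving out ON fish 3 gave -0.01 and leaving out ON fish 1 gave -0.16. Partners differed at least 10-fold in 19.2% ± 1.69 of these pairs in PN and 21.7% ± 1.76 in ON.

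Over the 313 PN pairs of all classes, the median absolute log2 ratio was 1.64 ± 0.03, and 1.64 ± 0.03 after re-pairing their + and - loci in every way. Over the 365 ON pairs it was 1.71 ± 0.11, against 1.82 ± 0.04 after re-pairing. Among the classes, head-to-head partners were closest in level. Their median absolute log2 ratio was 1.30 ± 0.03 in PN and 1.35 ± 0.14 in ON, while all re-pairings of the same + and - loci gave 1.496 ± 0.03 in PN and 1.69 ± 0.04 in ON (SD, n = 3 libraries). For tail-to-tail pairs the ratio was 1.70 ± 0.04 in PN, against 1.69 ± 0.07 after re-pairing, and 1.66 ± 0.14 in ON, against 1.59 ± 0.04. For nested pairs it was 1.99 ± 0.11 in PN, against 1.77 ± 0.01 after re-pairing, and 2.20 ± 0.10 in ON, against 2.21 ± 0.05. The inner locus was on the + strand in 121 of 255 PN and 379 of 796 ON nested pairs. Re-pairing therefore also joined hosts with hosts and inner loci with inner loci, which no real nested pair does, so these values are not alike. Adjacent head-to-head loci that do not overlap, up to 5000 bases apart, had a median of 1.34 in both species, near the values of the overlapping ones. This was not particular to that orientation. Adjacent tail-to-tail loci had 1.43 in PN and 1.34 in ON, and adjacent loci on the same strand 1.34 in PN and 1.39 in ON. Both loci reached an FPKM of 1 in all 3 libraries in 45.4% of PN pairs, against 41.7% of re-pairings, and in 21.2% of ON pairs, against 21.6% of re-pairings. These comparisons are descriptions and carry no test.

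Deviations of the fish were weakly correlated between the 2 loci of a pair. The deviation of a fish is its log2(FPKM + 0.1) minus the mean of that locus over 3 fish, centred per library. Across the 313 PN pairs, Pearson's r between the deviations of the + and - locus was 0.19, 0.19 and 0.16 in the 3 libraries, with a mean of 0.18 ± 0.02. Across the 365 ON pairs it was 0.23, 0.22 and 0.15, with a mean of 0.20 ± 0.04. The 3 deviations of a locus sum to about 0, and pairs that share a locus are not independent, so no p is given. The 2 loci also share their library. The sources used here do not say whether the aligner or assembler was told the strand, and without it reads from exons that overlap cannot be told apart, so the levels of such loci are uncertain.

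Adjacent opposite-strand loci without overlap gave a lower r in each library of both species. Their r was 0.12, 0.09 and 0.04 over 1542 adjacent pairs in PN and 0.15, 0.14 and 0.12 over 1228 in ON. Adjacent loci on the same strand gave 0.12 ± 0.04 over 1569 pairs in PN and 0.11 ± 0.05 over 1326 in ON. The difference between overlapping and adjacent pairs was not tested, and r of adjacent loci was computed from summed FPKM with a minimum of 1 only. The lower r of adjacent loci is thus not known to hold otherwise. With the most abundant transcript in place of the sum, r of overlapping pairs was 0.07 in ON. Over PN overlapping pairs with 3 or more exons in both loci it was 0.07 ± 0.12. Both loci of a pair deviated in the same direction in 56.5% ± 3.87 of cases in PN and 58.3% ± 1.41 in ON. Adjacent opposite-strand loci did so in 52.6% of cases in PN and 54.9% in ON. Re-pairing all + and - loci of pairs gave 50.2% ± 0.284 in PN and 50.2% ± 0.268 in ON.

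By class, the PN values of r were 0.08 ± 0.05 over 99 nested pairs, 0.26 ± 0.06 over 109 tail-to-tail pairs and 0.26 ± 0.04 over 105 head-to-head pairs. In ON they were 0.19 ± 0.05 over 118 nested, 0.16 ± 0.06 over 151 tail-to-tail and 0.28 ± 0.07 over 96 head-to-head pairs. These SDs are over 3 libraries of the same pairs and do not cover the sampling of pairs. The order of the classes was not stable. Nested PN pairs reached 0.28 without PN fish 3 and 0.17 without PN fish 1, and tail-to-tail ON pairs had 0.10 without ON fish 2. When each locus was represented by its most abundant transcript in place of the sum, r over all pairs was 0.14 in PN and 0.07 in ON, and -0.02 in tail-to-tail ON pairs.

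**Figure D4:**
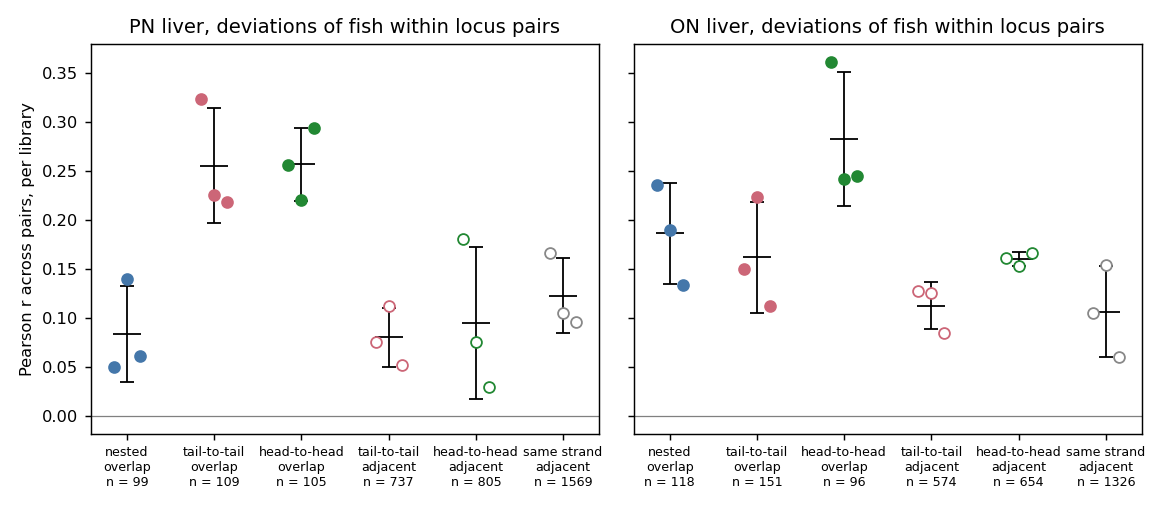
Pearson r (y axis) between the deviations of a fish at the 2 loci of a pair, across pairs, with PN on the left and ON on the right, a point per library (filled for overlapping, open for adjacent loci), and bars for the mean and SD of 3 libraries. Overlapping tail-to-tail and head-to-head pairs of PN have means of 0.26 each, while adjacent loci of either orientation have 0.08 and 0.09, and nested PN pairs have 0.08. The ON means lie closer together, with 0.16 in overlapping and 0.11 in adjacent tail-to-tail pairs. Head-to-head ON pairs have 0.28 overlapping and 0.16 adjacent.

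In PN, r was higher in pairs with a 2-exon locus in 2 of 3 libraries. Over 87 PN pairs in which one locus had 2 exons at most, r was 0.44, 0.14 and 0.42 in the 3 libraries, and over 218 pairs with 3 or more exons in both loci it was 0.01, 0.21 and -0.01. The second library thus did not follow the order of the others. In ON r was 0.26 ± 0.02 over 75 pairs with one 2-exon locus and 0.18 ± 0.06 over 281 pairs with 3 or more exons in both. By overlap length, PN pairs had 0.24 ± 0.15 under 100 bases (n = 65), 0.28 ± 0.06 from 100 to under 1000 bases (n = 102) and 0.13 ± 0.02 at 1000 bases or more (n = 146). In ON the values were 0.11 ± 0.05 (n = 76), 0.16 ± 0.06 (n = 100) and 0.21 ± 0.04 (n = 189), so the longest overlaps had the lowest r in PN and the highest in ON.

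Large shared differences between fish were few. In 21 of the 313 PN pairs (6.71%), both loci differed at least 2-fold between some 2 fish in the same direction, and in 4 pairs (1.28%) in opposite directions. Among 1542 adjacent PN loci these were 11 (0.713%) and 3 (0.195%). In ON, 14 of 365 pairs (3.84%) differed in the same and 4 (1.10%) in the opposite direction, against 18 (1.47%) and 4 (0.326%) of 1228 adjacent loci. The overlapping pairs include nested ones, which have no adjacent counterpart, and the differences were not tested. Deviations were also larger in overlapping pairs. The median over pairs of the mean absolute deviation was 0.197 at + loci of overlapping PN pairs and 0.168 at left loci of adjacent ones. In ON these were 0.202 and 0.174. Larger deviations reach a 2-fold cut more easily in either direction, so the shares of overlapping and adjacent pairs are not alike. In ON tail-to-tail pairs, 1.32% of overlapping and 1.39% of adjacent pairs differed in the same direction, and 0% of overlapping and 0.697% of adjacent pairs in opposite directions. In PN tail-to-tail pairs, 8.26% of 109 overlapping and 0.814% of 737 adjacent pairs differed in the same direction. In opposite directions these were 0% of overlapping and 0.136% of adjacent pairs. Such differences were rare in adjacent pairs too, so with these numbers of pairs the 0% does not set overlapping pairs apart. In PN, fish 1 was involved in most of the differences in the same direction, 11 between fish 1 and 2 and 12 between fish 1 and 3, against 2 between fish 2 and 3. Without PN fish 1 the count over the same pairs is therefore 2 of 313 in overlapping (0.639%) and 3 of 1542 in adjacent loci (0.195%).

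The most abundant pair of PN was nested. The + locus mRNA45898, on NW_005194320.1 from 108 to 1067, was at 7047, 8479 and 6711 FPKM in the 3 PN fish. The - locus mRNA45896, from 108 to 747 on the same sequence, was at 1856, 2996 and 2480. The + locus was higher in every fish, at log2 ratios of 1.93, 1.501 and 1.44. These loci share their start to the base, and their leading transcripts have 431 and 250 bases. A start or end shared to the base was seen in 9 PN and 8 ON pairs, all nested.

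Another nested PN pair was listed above 0 at both loci in 1 fish only. The + locus mRNA45950, on NW_005194562.1 from 1 to 968, was at 43.0, 652 and 0 FPKM in the 3 PN fish, and the - locus mRNA45949, from 1 to 367, was at 0, 415 and 0. Both loci of this pair were thus at their highest in fish 2 and listed at 0 in fish 3. Both loci begin at base 1 of their sequence, and both leading transcripts have 2 exons.

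One PN locus took part in the most abundant pairs of all 3 classes. The + locus mRNA23014, on NW_005187496.1 from 2330478 to 2407685, was at 150, 390 and 224 FPKM in the 3 PN fish. Its nested partner mRNA1582, from 2353308 to 2370997, was at 1195, 273 and 295, highest in fish 1 where mRNA23014 was lowest. The tail-to-tail partner mRNA1585, from 2406765 to 2420567, was at 392, 337 and 294. The head-to-head partner mRNA23013, from 2329600 to 2332798, was at 135, 405 and 403. Only mRNA23013 had its lowest value in the same fish as mRNA23014.

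Other abundant PN pairs overlapped by a few bases. The + locus mRNA41829, on NW_005188037.1 from 745 to 6187 with 19 exons in its leading transcript, was at 732, 819 and 959 FPKM. Its tail-to-tail partner mRNA41830, from 6178 to 14757, shared 10 bases with it and was at 38.6, 66.1 and 70.8. Both were lowest in fish 1 and highest in fish 3. The tail-to-tail pair of mRNA3316, at 239, 135 and 111 FPKM, and mRNA3317, at 67.5, 56.3 and 34.4, shared 7 bases on NW_005187403.1 from 6928160 to 6928166, and both loci were highest in fish 1 and lowest in fish 3. The head-to-head pair of mRNA7286, at 47.6, 64.0 and 58.4 FPKM, and mRNA7285, at 431, 544 and 343, shared 3 bases on NW_005187413.1. In these pairs the log2 ratio varied by 0.61, 0.57 and 0.62 between fish, below the median of 0.70 for PN pairs. The remaining head-to-head pair had mRNA14339 at 834, 749 and 876 and mRNA14337 at 331, 191 and 269, both lowest in fish 2, with an overlap of 3420 bases on NW_005187444.1.

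In ON the most abundant nested pair had identical spans on both strands. The loci mRNA37189 (+) and mRNA37190 (-) both ran from 3129 to 16177 on NW_017614206.1, each with one transcript of 2 exons. The + locus was at 290, 233 and 378 FPKM in the 3 ON fish and the - locus at 2190, 1846 and 2062. The - locus was higher in every fish, at log2 ratios of + to - of -2.92, -2.99 and -2.45. How reads of such a pair were divided between the strands was not tested.

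A single - locus on NC_031980.1 took part in 2 of the abundant ON pairs. The - locus mRNA26080, from 31168152 to 31190503 with 15 exons, was at 207, 164 and 224 FPKM in the 3 ON fish. The nested + locus mRNA26082, from 31180883 to 31184861, was at 550, 344 and 661, and the head-to-head + locus mRNA26086, from 31188800 to 31191946, was at 1103, 735 and 1107. All 3 loci were lowest in fish 2 and highest in fish 3. FPKM of the named loci were not centred per library. The summed FPKM of all ON spliced loci was also lowest in fish 2, at 692526, 613742 and 645565 in the 3 fish. The median of unpaired ON loci above 0 was instead lowest in fish 1, at 1.36, 1.45 and 1.45. A lowest value in fish 2 at both loci of a named ON pair thus need not be particular to that pair. The leading transcript of mRNA26082 has 201 bases and 2 exons.

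A chain of 3 ON loci lay on NW_017613886.1. The + locus mRNA36852, from 1232891 to 1235256, was at 10619, 6434 and 8880 FPKM, the second most abundant of all paired ON loci. The - locus mRNA36854, from 1233286 to 1238531, overlapped it tail-to-tail by 1971 bases and was at 295, 100 and 226. Both were lowest in fish 2 and highest in fish 1. The + locus mRNA36855, from 1236569 to 1241186, overlapped mRNA36854 head-to-head by 1963 bases and was at 181, 181 and 173, a narrow range in which the fish did not follow that order.

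The remaining abundant ON pairs differed in how their loci varied. The tail-to-tail loci mRNA8872, at 865, 467 and 986 FPKM, and mRNA8889, at 646, 251 and 558, shared 545 bases on NC_031969.1 and were both lowest in fish 2. The tail-to-tail loci mRNA12228, at 1055, 883 and 917, and mRNA12233, at 253, 30.6 and 107, shared 1342 bases on NC_031971.1 and ordered the fish alike. By contrast, the nested pair of mRNA3178, at 1277, 1309 and 1108, and mRNA27494, at 42.2, 304 and 244, did not order the fish alike, and the same held for the head-to-head pair of mRNA34004, at 307, 345 and 317, and mRNA33999, at 456, 383 and 432. In the last pair the + locus was highest and the - locus lowest in fish 2, with SDs of 19.9 and 37.4 FPKM. An 11-exon leading transcript in mRNA34004 and a 5-exon one in mRNA33999 place it among the pairs without a 2-exon member.

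**Figure D5:**
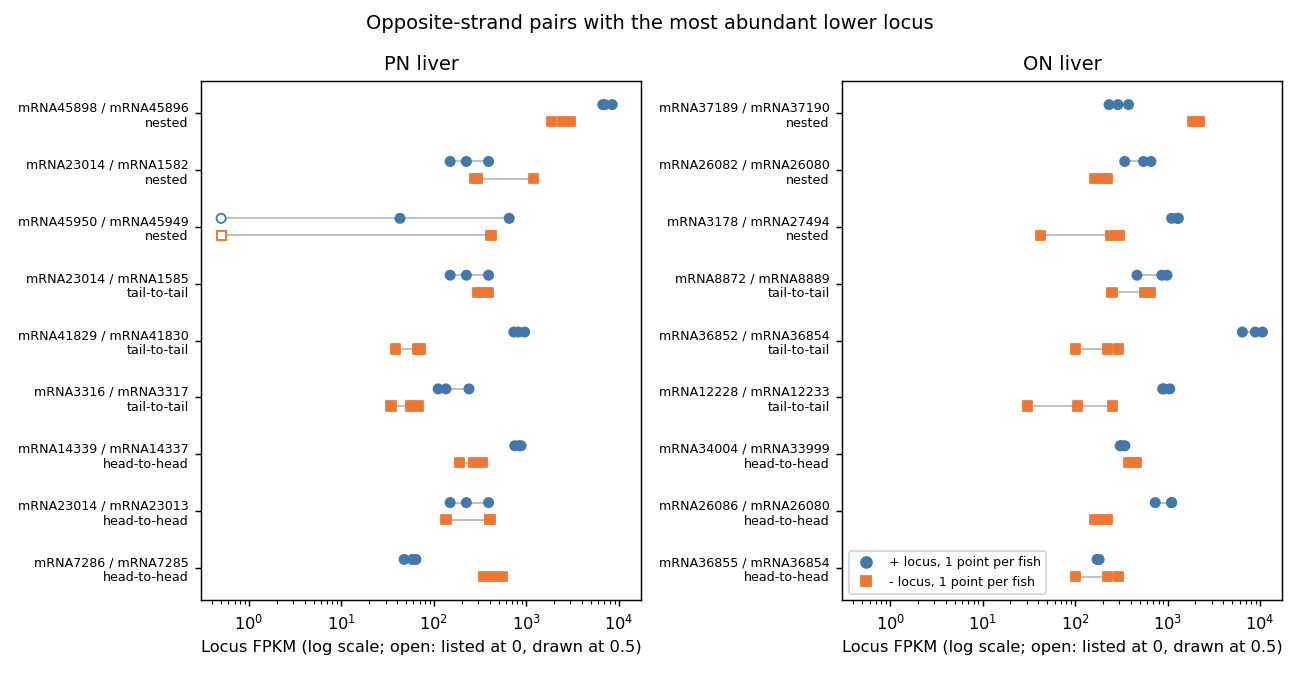
FPKM per fish (x axis, log scale) of the + locus (circles) and the - locus (squares) in the 3 pairs per class whose lower locus was most abundant, with PN on the left and ON on the right. The pair mRNA45898/mRNA45896 lies furthest right in PN, and the open symbols of mRNA45950/mRNA45949 mark fish listed at 0.

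Leading transcripts of 2 exons were counted among the most abundant pairs. Both loci had a mean FPKM of 100 or more in 8 PN and 19 ON pairs. A leading transcript of 2 exons was present in 7 of the 8 PN pairs and 12 of the 19 ON pairs. In PN, 3 of the 8 pairs share mRNA23014, whose 2-exon leading transcript has 4198 bases. The shorter leading transcript was under 350 bases in 4 of the 8 PN pairs and 10 of the 19 ON pairs. At a mean FPKM of 10 or more in both loci, 27 of 48 PN and 36 of 67 ON pairs had a 2-exon leading transcript. The shorter one was under 350 bases in 12 of these PN and 24 of these ON pairs. These shares were not computed over all pairs, so it is not known whether abundant pairs differ from the rest. On a stricter measure, a locus with no transcript of more than 2 exons, 28.1% of all PN pairs had 1 such locus and 3.04% had 2. In ON these were 25.3% and 1.80%. FPKM divides by transcript length, so the same number of reads gives a higher value in short transcripts. Over all pairs with one 2-exon locus, that locus was the higher one in 74 of 194 in PN (38.1%) and 99 of 435 in ON (22.8%).

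In the pair with the longest overlap of each species, the + locus joined many transcripts. In PN, mRNA6092 (+), from 1811309 to 1922355 on NW_005187410.1 with 11 transcripts, enclosed mRNA6101 (-), from 1812441 to 1887288, over 74848 bases. The + locus was at 2.05, 59.3 and 21.4 FPKM in the 3 PN fish and the - locus at 0.557, 27.2 and 7.47, so both were lowest in fish 1 and highest in fish 2, and the log2 ratio varied by only 0.58. In ON, mRNA7910 (+), from 43030448 to 43674404 on NC_031968.1 with 18 transcripts, overlapped mRNA7888 (-), from 42943292 to 43365825, head-to-head over 335378 bases. The + locus was at 438, 648 and 484 FPKM in the 3 ON fish and the - locus at 3.55, 8.59 and 2.66, and both were highest in fish 2.

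One locus in each species stood on top of many others. In PN the + locus mRNA40625, from 28628 to 201175 on NW_005187900.1, had a single transcript of 2 exons and 227 bases and overlapped 6 - loci, 5 of them nested in it. It was at 11.3, 5.14 and 8.001 FPKM in the 3 PN fish, and the means of its partners ran from 0.167 to 7.24 with a median of 0.658. Its tail-to-tail partner mRNA40634, from 166415 to 204413, was the most abundant of them, at 9.31, 6.96 and 5.45.

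In ON the + locus mRNA16480, from 18209046 to 18783695 on NC_031973.1, joined 11 transcripts and overlapped 18 - loci, 16 of them nested. It was at 3.61, 2.84 and 3.44 FPKM in the 3 ON fish. Of the 18 partners, 6 reached an FPKM of 1 in all 3 libraries, 8 had a mean below 0.1 and 7 lay under the floor of 3 reads in every library. A run of 5 neighbouring partners had leading transcripts of 28 or 29 exons, from mRNA16487, which starts at 18506893, to mRNA16493, which ends at 18664043. The mean FPKM of mRNA16493 was 0.245 ± 0.0854 (SD, n = 3), and the other 4 of this run had means between 0.00240 and 0.0198. The most abundant partner, mRNA16479, was a nested locus from 18291719 to 18293586 at 7.70, 9.99 and 22.9 FPKM.

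The ratio of + to - locus varied between fish by a median of 0.70 on the log2 scale in 313 PN pairs and 0.69 in 365 ON pairs. It varied by 1 or more in 97 PN pairs (31.0%) and 113 ON pairs (31.0%), and the more abundant locus changed between fish in 53 PN and 54 ON pairs. In the pair with the widest range among these 313 PN pairs, the nested + locus mRNA32790, on NW_005187622.1 from 531792 to 539375, was at 4.65, 11.5 and 28.9 FPKM in the 3 PN fish. Its host mRNA32794, from 303543 to 602465, was at 42.1, 16.1 and 1.63. The inner locus was thus highest in the fish where the host was lowest, and the log2 ratio ran from -3.15 to 4.07. These pairs were picked for their range, so their values are a description.

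In the other PN pairs of wide range, one locus varied more than its partner. The - locus mRNA14932, on NW_005187447.1 from 28038 to 56585, was at 1.61, 4.27 and 105 FPKM, inside mRNA14928 at 794, 354 and 418, and the leading transcript of mRNA14932 has 219 bases. The head-to-head loci mRNA44792, at 28.6, 16.4 and 14.3, and mRNA44790, at 1.18, 5.99 and 7.70, ordered the fish in opposite ways on NW_005190430.1. In ON, mRNA6289, from 13140474 to 13142854 on NC_031967.1, was at 10.9, 3.72 and 260 FPKM while its host mRNA6285 stayed at 1.95, 1.59 and 1.93. The tail-to-tail locus mRNA19853, from 18359027 to 18366905 on NC_031976.1, was at 5.35, 211 and 92.8 while mRNA1302 was at 9.64, 10.8 and 8.04. The head-to-head loci mRNA12765, at 27.2, 1.49 and 3.85, and mRNA12764, at 35.7, 79.4 and 21.3, were both variable on NC_031971.1. In the pairs of mRNA6289 and mRNA19853, 1 fish set most of the range.

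Transcripts listed without a strand, all of a single exon, lay within the overlaps of few pairs. They lay in the overlap of 10 nested, 1 tail-to-tail and 3 head-to-head pairs in PN, and of 23 nested, 2 tail-to-tail and 3 head-to-head pairs in ON. In the other ON classes and in PN, the overlap held fewer of them per 100 kb than the rest of the spans. In nested ON pairs they numbered 0.462 per 100 kb of overlap and 0.305 per 100 kb of the rest. The rest of a host was counted once for each of its pairs, which lowers the value for the rest. The order of the 2 values in nested ON pairs is therefore not settled. At least 1 locus was listed at 0 in all 3 libraries in 3 of 690 PN pairs and 9 of 1719 ON pairs. By locus, 0.229% of paired and 0.0636% of unpaired PN loci were at 0 in all 3 libraries, 3 and 11 loci. In ON these were 0.326% and 0.343%, 10 and 64 loci.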

How the data were processed

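Liver RNA of 3 PN and 3 ON males was sequenced, one library per fish. The authors aligned reads with HISAT2 2.1.0 and assembled them with Stringtie using the reference annotation. The submitters' processing notes name both tools, and the assembly settings come from the paper's methods. The sources used here do not say whether either tool was told the library strand. The paper also assembled the reads with Stringtie without the annotation and with Trinity. It then removed unexpressed and duplicated Stringtie transcripts, clustered similar ones within a locus and merged each cluster by joining its exons. Whether the transcripts used here precede or follow these steps was not tested. How spans, exon numbers, transcripts per locus and unexpressed loci depend on these steps was also not tested. The deposited tables list, for each transcript of the merged set of a species, an FPKM and a per-base coverage. Count models were not used, since neither value is a read count. The aligned bases of a library were computed from the ratio of coverage to FPKM.

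Transcripts with a strand and 2 or more exons were joined into loci where their spans overlapped on one strand, and their FPKM were summed. A + and a - locus sharing 1 base or more formed a pair. Nested pairs have one span within the other, shared ends included. The tables hold no exon positions, so overlap means overlap of spans. Deviations of a fish were log2(FPKM + 0.1) minus the locus mean over 3 fish, centred per library on the median of loci at an FPKM of 1 or more in all 3 libraries. They were compared with adjacent loci up to 5000 bases apart and with all re-pairings of + and - loci. No samples or pairs were drawn at random. Values per library of PN and ON entered exact permutation tests, two-sided and adjusted over 4 tests by Benjamini-Hochberg.

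Named pairs are, in each species and class, the 3 whose lower locus had the highest mean FPKM, and in each species the longest overlap, the locus with most partners and, among pairs with both loci at an FPKM of 1 or more in all 3 libraries, the 3 whose ratio varied most between fish. The members and lists were chosen with earlier results of these data known. Alternatives covered overlap length, transcripts used, FPKM minimum, pseudocount, scaling, large sequences, left-out libraries and a replicate block. Pairing was tested on simulated data of 600 transcripts, where 0 bases covered by loci differed and the number of pairs differed by 0. The classes were checked on a few fixed coordinates, with 0 differing. Simulated correlations were recovered to within 0.035. Computations used scipy 1.17.1, pandas 2.3.3 and numpy 2.4.6 in Python 3.11.15, and plots used matplotlib 3.10.9. A floor of 3 reads of 75 bases is at most 0.607 FPKM for the named loci and covers counting error only.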

Additional observations from a re-analysis of the deposited data

Results flagged for a closer look

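Among short loci, the contrast of paired with unpaired loci had opposite signs in the species in every library. With spliced loci divided into 4 equal groups by span, in the shortest group the mean of the median log2 FPKM differences was 0.14 in PN (0.05, 0.19 and 0.19 per library) and -0.69 in ON (-0.74, -0.63 and -0.70). In the next group it was 0.25 in PN (0.18, 0.31 and 0.25) and -0.15 in ON (-0.22, -0.15 and -0.09). The difference between the species was not tested in these groups, and the division by span was chosen with earlier results known.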

How the results depend on the processing

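The differences between PN and ON in the share of pairs with both loci at 1 FPKM (3.30 to 28.7 points), the FPKM share of paired loci (-7.53 to -3.53 points) and the level of paired against unpaired loci (0.07 to 0.91) kept their direction in the alternatives run. The 3.30 points came from transcripts with a mean FPKM of 1 or more, a filter at the level of the share itself. The difference in the median absolute log2 ratio was 0.0104 (exact permutation p = 0.90) with overlaps of 1000 bases or more, opposite in sign to the -0.07 over all pairs. With 2 fish against 3 the exact test cannot go below 0.10. The replicate numbers mark different fish. With the replicate block, the paired differences of 26.5 and -6.32 points and 0.49 each had p = 0.25 in an exact sign-flip permutation, the smallest 3 pairs allow, and -0.07 had p = 0.50.

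The correlation of deviations in PN was 0.13 with overlaps of 1000 bases or more, 0.14 with the most abundant transcript, 0.23 with transcripts of a mean FPKM of 1 or more, 0.30 and 0.26 with FPKM minimums of 0.1 and 5, and 0.23 with loci in no other pair. In ON it was 0.0692 with the most abundant transcript, and -0.0203 in ON tail-to-tail pairs. Leaving out one library gave 0.17 to 0.27 in PN and 0.19 to 0.28 in ON. Pairs numbered 330 in PN and 997 in ON with overlaps of 1000 bases or more, 342 in PN and 415 in ON with transcripts of a mean FPKM of 1 or more, 1135 in ON with a mean of 0.1 or more, and 442 in PN on sequences with 50 or more spliced loci. The cause of these changes was not tested. The settings with a mean FPKM of 1 for the species differences and correlations, loci in no other pair, large sequences for the share of pairs, and without the most abundant locus were chosen after seeing the data. Depth limits loci under the floor of 3 reads, among them 7 partners of mRNA16480.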
